A study of Mus musculus with 6 samples.

Results

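The apolipoproteins described here are 9 genes that encode protein components of plasma lipoproteins: Apoa1, Apoa2, Apoa4, Apoa5, Apob, Apoc1, Apoc3, Apoe and Apoh. They were chosen by their Ensembl identifiers, and 9 of 9 were found among the 8941 genes listed for each library. The measurement was the disome footprint, a stretch of messenger RNA that a pair of stacked ribosomes protects from nuclease, counted over each gene in mouse liver. The study addressed the sites of ribosome collisions in a living tissue. Its 6 libraries fall into 3 groups of 2, collected at ZT0, ZT2 and ZT12, where ZT (zeitgeber time) counts hours since the lights came on. Every group came from the liver of C57BL/6JRj males, an inbred mouse strain, aged 11 to 12 weeks and kept under 12 h of light and 12 h of darkness, and ZT12 is the start of the dark phase. No genotype or drug differed between them. Each library was a pool of 2 livers, so n counts libraries. If the replicates are separate pools, as is assumed here, their spread holds differences between pooled animals and between preparations together.

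Lipoproteins carry lipids through the blood, and apolipoproteins give them their structure and decide which receptors and enzymes they meet. The liver secretes very-low-density lipoproteins, which are built around apolipoprotein B and carry triglyceride, and it supplies the main proteins of high-density lipoproteins (HDL), which return cholesterol to the liver. Hepatocytes translate these messenger RNAs at the endoplasmic reticulum as secreted proteins.

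By position in RefSeq (GRCm38.p6), 6 of the 9 genes lie in a pair of compact gene clusters. Apoa1, Apoc3, Apoa4 and Apoa5 occupy chr9:46228630-46271921, a span of 43292 bases that holds 4 RefSeq genes in all. Apoc1 and Apoe share chr7:19689480-19701310, a span of 11831 bases with 2 RefSeq genes. Apoa2 lies alone at chr1:171221564-171226379, Apoh at chr11:108395297-108414396 and Apob at chr12:7977629-8016839. All 9 are annotated as protein-coding.

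Within the chromosome 9 cluster, Apoa5 had its lowest mean level at ZT0, whereas Apoa1, Apoa4 and Apoc3 had theirs at ZT12. Apoc3 had no promoter entry, so no window of it was searched. The 250 bases before the gene start of Apoa5, Apoa1 and Apoa4 are shown, 5′ to 3′ on the plus strand, from RefSeq (GRCm38.p6). Capitals mark matches to the motifs searched on both strands, which were the E-box CACGTG bound by circadian and other helix-loop-helix factors, the TATA box TATAAA, the nuclear receptor half-site AGGTCA, the HNF4 motif core CAAAGTCCA and the D-box TTANGTAA. The windows lie at chr9:46268358-46268607 for Apoa5, chr9:46228380-46228629 for Apoa1 and chr9:46240594-46240843 for Apoa4.
Apoa5: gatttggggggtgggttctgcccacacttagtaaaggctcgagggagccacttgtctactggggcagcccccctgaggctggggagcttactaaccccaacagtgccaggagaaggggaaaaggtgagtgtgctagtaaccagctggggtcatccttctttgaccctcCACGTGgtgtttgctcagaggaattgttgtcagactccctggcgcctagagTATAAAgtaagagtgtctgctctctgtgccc
Apoa1: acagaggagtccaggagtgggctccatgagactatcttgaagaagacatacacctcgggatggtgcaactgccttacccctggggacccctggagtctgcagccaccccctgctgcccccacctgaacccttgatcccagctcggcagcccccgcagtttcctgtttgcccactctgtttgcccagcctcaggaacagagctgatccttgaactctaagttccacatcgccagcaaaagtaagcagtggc
Apoa4: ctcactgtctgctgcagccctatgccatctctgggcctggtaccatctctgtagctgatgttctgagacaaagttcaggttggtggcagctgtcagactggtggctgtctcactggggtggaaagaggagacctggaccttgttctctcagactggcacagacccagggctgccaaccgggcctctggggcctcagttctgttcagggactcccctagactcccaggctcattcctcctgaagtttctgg
The Apoa5 window held 1 E-box, whose first base lies 82 bases before the start, and 1 TATA box at 31 bases, and they do not overlap. The Apoa1 and Apoa4 windows shown held 0 exact matches to any of the 5 motifs. Only the spelling given for each motif was sought, so variants of a motif were not counted. Among 32851 windows of the same length in the table, 6.02% held the E-box, 12.4% the TATA box, 14.0% the half-site, 0.384% the HNF4 motif core and 2.06% the D-box. A match describes letters only, and no binding was measured. Promoter entries were found for 7 of the 9 genes, not for Apoc1 and Apoc3, and only the Apoa5 windows among them held the E-box.

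Levels are given as RPKM, a library-scaled read number per kilobase of gene length, so that genes of different length can be compared. Recovered read totals (the whole reads behind the RPKM steps) were 6346294 to 12322485 per library. The ZT2 libraries differed most from each other, with a median absolute replicate gap of 0.40 on the log2(RPKM + 1) scale over the 8355 tested genes, against 0.27 at ZT12 and 0.19 at ZT0. ZT2 replicate 2 listed 250 genes at 0, ZT2 replicate 1 listed 97, ZT12 replicate 2 listed 52 and each of the other libraries 4. The 9 apolipoproteins were above 0 in every library, and all 9 passed the filter of a mean of at least 1 RPKM. The tables give identifiers without symbols, so the tissue label was not checked against liver marker genes. In a whole-tissue lysate, fewer cells of a type and less RNA per cell cannot be told apart. Messenger RNA amounts and single-ribosome footprints were not analysed here, so a disome level mixes transcript amount, translation and stacking.

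The 9 genes spanned a 1172-fold range of mean disome level, and 8 of them lay among the 500 most covered genes. Apoa2 led with 57046 ± 19757 RPKM (SD, n = 6), at rank 4 of all genes, between the genes at rank 3 with 58000 ± 15129 RPKM and rank 5 with 38360 ± 10236 RPKM. Apoe followed at rank 11 with 12141 ± 2875 RPKM (SD, n = 6), Apoa1 at rank 14 with 9746 ± 2370 RPKM and Apoc3 at rank 21 with 6371 ± 2186 RPKM. Apoc1 and Apoh were close together, with 3226 ± 677 RPKM and 3118 ± 445 RPKM (SD, n = 6). Apoa5 had 904.3 ± 147.5 RPKM at rank 147, Apob 259.1 ± 38.2 RPKM at rank 471 and Apoa4 48.7 ± 22.4 RPKM at rank 1593 (SD, n = 6). The median over all listed genes was 7.47 RPKM, so even Apoa4 had 6.52 times that level.

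The rank of a gene among all genes in each library does not depend on how libraries were scaled. Apoa2 stayed within ranks 2 to 4 and Apoe within 9 to 14. Apoa1 ranged from rank 11 to 22 and Apoc3 from rank 15 to 43, and ZT12 replicate 2 was the library with the lowest place for both. Apoc1 took ranks 38 to 65 and Apoh ranks 36 to 57. Apoa5 held ranks 171 and 182 in the ZT0 libraries, 125 and 144 in the ZT2 pair and 146 and 128 in the ZT12 pair, so its ZT0 places were the lowest. Apob took ranks 406 to 577. Apoa4 held ranks 1519 and 1295 in the ZT0 libraries, 1683 and 1183 in the ZT2 pair and 2027 and 3021 in the ZT12 pair, and both ZT12 places were lower than the other 4.

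Of the 8 steps in this order, 4 were larger than the spread over libraries and 4 were not. The ranges did not overlap between Apoa2 and Apoe, between Apoh and Apoa5, between Apoa5 and Apob, or between Apob and Apoa4. They overlapped for Apoe and Apoa1, which kept their order in 5 of 6 libraries, for Apoa1 and Apoc3, also in 5 of 6, for Apoc3 and Apoc1, in 6 of 6, and for Apoc1 and Apoh, in 4 of 6.

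**Figure D1:**
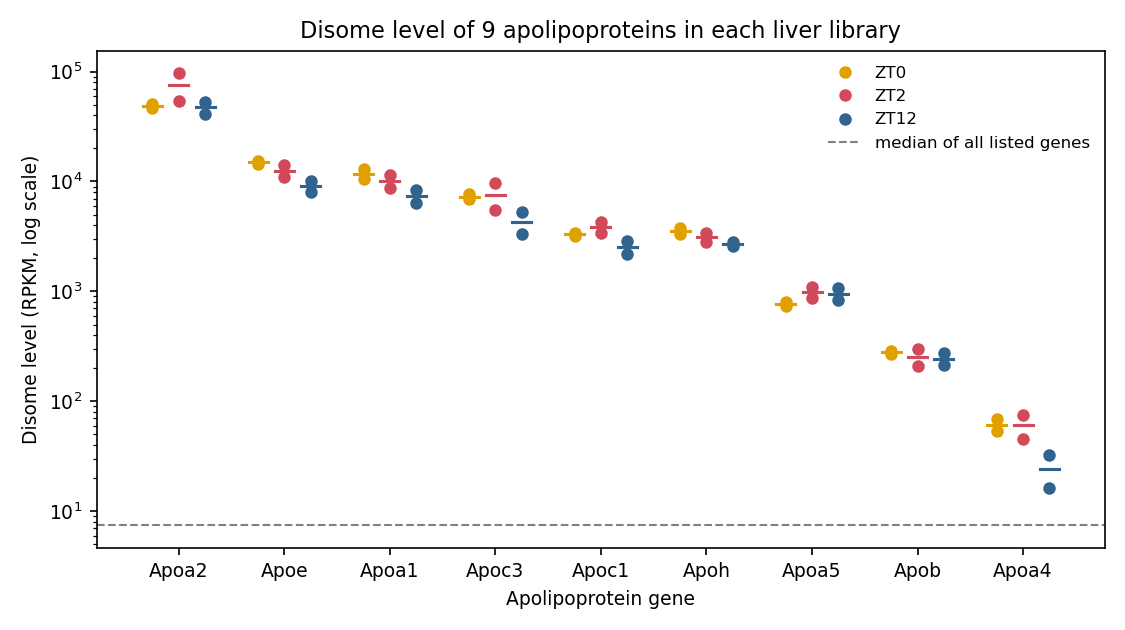
Disome level (RPKM, log scale) of each apolipoprotein at ZT0, ZT2 and ZT12, with 1 point per library, a bar at the mean of the 2 libraries and a dashed line at the median of all listed genes. Apoa2 stands above the others in every library and Apoa4 below them, while the points of Apoc1 and Apoh lie at similar heights.

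The count of reads gave another picture than the level per length. For 9 of 9 members the recovered length was a multiple of 3, as a coding length is, and lengths ran from 264 nucleotides in Apoc1 to 13515 in Apob. The lengths were not set against protein sequences. That of Apoc3, 411 nucleotides or 137 codons, may be that of an isoform or of joined exons, and its RPKM depends on it. Apoa2, with 306 nucleotides or 102 codons, collected 898944 reads over the 6 libraries, Apoe with 933 nucleotides 580209 and Apoa1 with 792 nucleotides 400154. Apob came next by reads, with 187656, although it was next to last by RPKM, its reads being spread over 4505 codons. Apoc1, at rank 47 by RPKM, held 43851 reads on 88 codons. Apoa4 rested on the fewest reads, 236 to 691 per library on 1185 nucleotides, while every other member had at least 6210. The median length over all genes was 1404 nucleotides.

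Together the 9 genes took 8.41% ± 1.71 (SD, n = 6) of the summed RPKM and 4.77% ± 0.795 of the recovered reads. Their share of reads was 4.80% and 5.10% in the ZT0 libraries, 6.04% and 4.62% in the ZT2 pair and 4.44% and 3.63% in the ZT12 pair. The exact 95% Clopper-Pearson intervals were narrow, for example 3.62% to 3.64% in ZT12 replicate 2, and cover counting error only. ZT12 replicate 2 was the lowest library and ZT2 replicate 1 the highest, and the ZT2 libraries lay on either side of both ZT0 libraries. Apoa2 alone held 53.7% and 53.9% of the summed RPKM of the 9 in the ZT0 libraries, 70.0% and 60.4% in the ZT2 pair and 63.6% and 63.2% in the ZT12 pair. No test was made on these sums.

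**Figure D2:**
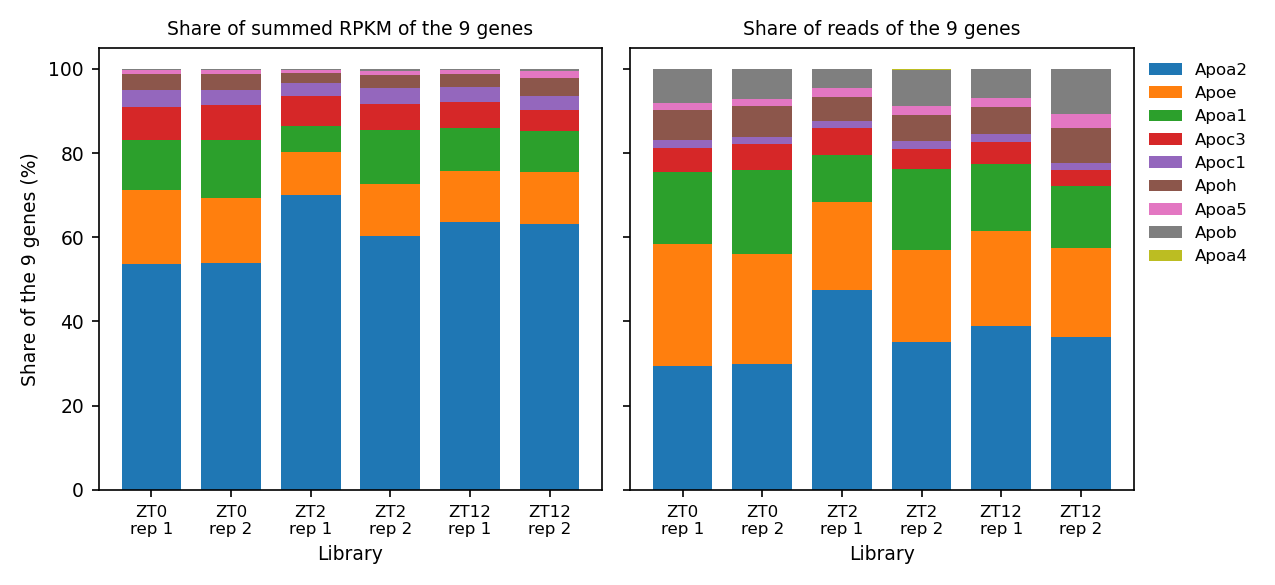
Share of each apolipoprotein in the summed RPKM of the 9 genes (left, %) and in their reads (right, %), with 1 stacked bar per library. Apoa2 takes the largest part in every library on both scales, though by reads Apoe nearly matched it in ZT0 replicate 1 (29.2% against 29.3%). Apob is thin by RPKM but held 4.59% to 10.6% of the reads.

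The 3 comparisons between time points and 1 test over all time points were read from a limma fit across all genes, and none of the 9 apolipoproteins passed any of them at an adjusted p of 0.05. Limma called 0 of 9 for ZT2 against ZT0, where it called 0.0239% of the 8355 genes tested, 0 of 9 for ZT12 against ZT0 (0.946% of all genes), 0 of 9 for ZT12 against ZT2 (2.06%) and 0 of 9 in the F test (1.26%). Under an unadjusted p of 0.05, limma counted 0 of 9 for ZT2 against ZT0 (13.7% of all tested genes), 4 of 9 for ZT12 against ZT0 (14.5%), 3 of 9 for ZT12 against ZT2 (19.2%) and 2 of 9 in the F test (18.6%). The 4 were Apoa1, Apoa4, Apoc3 and Apoe, and the 3 were Apoa4, Apoc1 and Apoc3. The counts moved with single libraries, as did the share of all tested genes under the same p, which is given in parentheses beside each new count. For ZT12 against ZT0 the count of 4 fell without either ZT0 library and most of all without ZT12 replicate 2. The count rose without ZT12 replicate 1 or either ZT2 library. Among all tested genes the share fell when a ZT0 or ZT12 library was left out and rose when a ZT2 library was. The median log2 change of the 9 was -0.45 without ZT12 replicate 2 and -0.58 without ZT12 replicate 1. For ZT12 against ZT2 the 3 became 0 without ZT12 replicate 2 (11.4%) and 5 without ZT2 replicate 2 (25.5%). For ZT2 against ZT0 the 0 became 2 without ZT2 replicate 2 (18.9%). In the F test the 2 became 0 without ZT12 replicate 2 (12.3%), 1 without ZT0 replicate 1 (10.8%) and 1 without ZT0 replicate 2 (9.98%). They became 4 without ZT12 replicate 1 (16.2%), 4 without ZT2 replicate 1 (31.6%) and 6 without ZT2 replicate 2 (27.8%). With a half-width of the 95% interval of 0.41 to 0.88 on the log2 scale, depending on the gene, changes of modest size could not be resolved. The comparisons share libraries, so their values for 1 gene are not independent. Limma-voom on the recovered reads, a different weighting of the same data, called Apoa4 and Apoe lower at ZT12 than at ZT0 (2 of 9), Apoa4 lower at ZT12 than at ZT2 (1 of 9) and Apoa4 in the F test (1 of 9). It also called more of all tested genes than limma on RPKM did, 3.39% for ZT12 against ZT0, 4.32% for ZT12 against ZT2 and 4.27% in the F test.

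At ZT12 against ZT0 the apolipoproteins lay mostly lower, with 8 of 9 log2 changes below 0 (50.8% of all tested genes were below 0). The median log2 change of the 9 was -0.40, and that of all tested genes was -0.01. The libraries of both time points did not overlap for 7 of the 9, with 6 lower and 1 higher at ZT12, against 54.4% of all tested genes in either direction (27.8% lower and 26.6% higher). The members with non-overlapping lower values were Apoa1, Apoa4, Apoc1, Apoc3, Apoe and Apoh, and the one higher was Apoa5. The sign held under every scaling tried for each of these 7, whereas Apoa2 turned to 0.023 under scaling to an equal summed RPKM.

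At ZT12 against ZT2 the log2 changes of all 9 were below 0, against 47.7% of all tested genes, with a median of -0.46 for the 9 and 0.03 for all tested genes. The median of the 9 was -0.23 with quantile normalization (all tested genes -0.00052), -0.29 with equal summed RPKM (all tested genes 0.17) and -0.28 without ZT12 replicate 2 (all tested genes 0.03). The libraries did not overlap for 7 of the 9, with 7 lower and 0 higher at ZT12, and for 45.9% of all tested genes (22.3% lower and 23.6% higher). Apoa5 and Apob overlapped, and scaling to the same summed RPKM turned them to 0.12 and 0.11. At ZT2 against ZT0 the 9 were divided, with 3 above and 6 below 0 (53.6% of all tested genes below 0), a median of -0.06 and a median over all tested genes of -0.04. This division depended on single libraries: without ZT0 replicate 2 the median was 0.08 with 4 below 0, and without ZT2 replicate 1 it was 0.04 with 4 below 0. It was -0.10 without ZT0 replicate 1, and -0.14 with equal summed RPKM. The libraries did not overlap for 4 of them, Apoa2, Apoa5 and Apoc1 higher and Apoe lower at ZT2, and for 46.4% of all tested genes (21.5% higher and 24.9% lower).

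**Figure D3:**
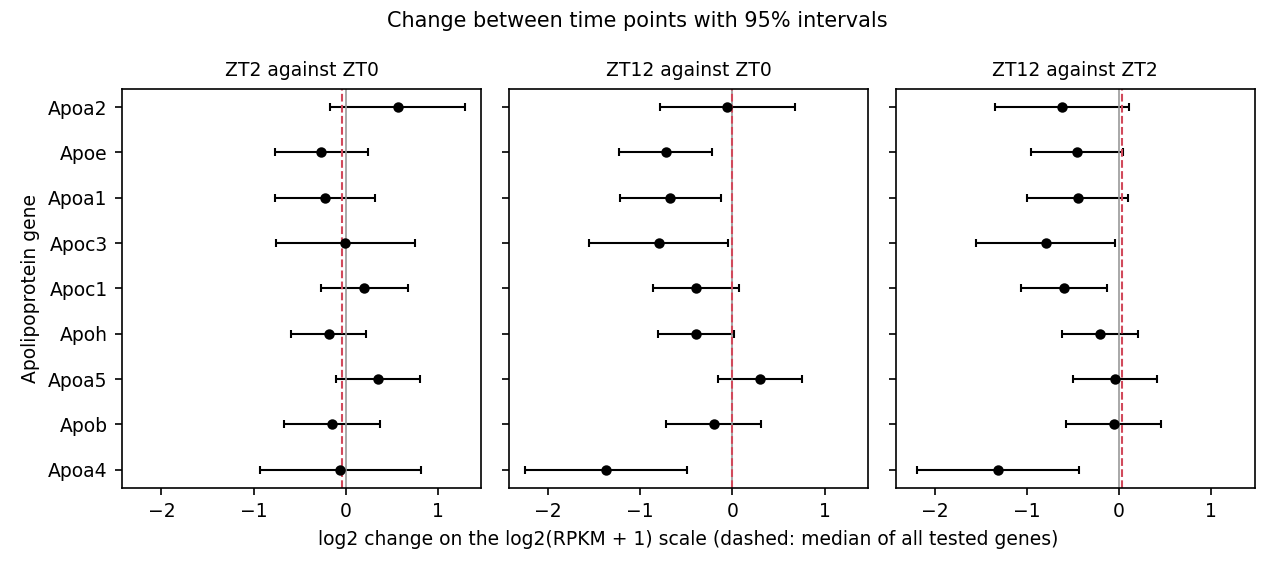
Log2 change of each apolipoprotein on the log2(RPKM + 1) scale in the 3 comparisons, with 95% limma intervals as bars and the median of all tested genes as a dashed line. Apoa4 lies farthest to the left in both comparisons with ZT12, at -1.37 against ZT0 and -1.31 against ZT2, and none of the 9 passed the adjusted test in any panel.

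Among the HDL proteins, Apoa1 (ENSMUSG00000032083) encodes the main structural protein of HDL and the activator of the cholesterol-esterifying enzyme LCAT. It had 10498 and 13003 RPKM in the ZT0 libraries, 8728 and 11462 RPKM in the ZT2 pair and 8352 and 6429 RPKM in the ZT12 pair. Both ZT12 libraries lay below every other library, although 8352 RPKM at ZT12 was close to 8728 RPKM at ZT2. The ZT0 and ZT2 libraries overlapped. The level averaged 7391 ± 1360 RPKM at ZT12 and 11751 ± 1771 RPKM at ZT0 (SD, n = 2 each), a ratio of 0.629. The log2 change was -0.67 ± 0.23 (SE, limma adjusted p = 0.256).

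Apoa2 (ENSMUSG00000005681), the second HDL protein by abundance, had 46974 and 50592 RPKM in the ZT0 libraries, 96283 and 53941 RPKM in the ZT2 pair and 53050 and 41440 RPKM in the ZT12 pair. One library, ZT2 replicate 1, stood far above the other 5, which lay within 41440 to 53941 RPKM. The ZT2 libraries averaged 75112 ± 29940 RPKM and the ZT0 libraries 48783 ± 2558 RPKM (SD, n = 2 each). On the log2 scale the difference was 0.56 ± 0.31 (SE, limma adjusted p = 0.461). Leaving out ZT2 replicate 1 gave 0.15 in its place, and leaving out ZT2 replicate 2 gave 0.98. With quantile normalization the difference was 0.067, and for ZT12 against ZT2 it was -0.067, in place of -0.62. At ZT12 against ZT0 the log2 change was -0.06, with a 95% interval of -0.79 to 0.67, so that the data allow a change of up to 1.60-fold higher or down to 0.580-fold.

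The ratio of Apoa2 to Apoa1 within a library, per coding length, was 4.47 and 3.89 in the ZT0 libraries, 11.0 and 4.71 in the ZT2 pair and 6.35 and 6.45 in the ZT12 pair. It was lowest in both ZT0 libraries and agreed closely between the ZT12 libraries.

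Apoa4 and Apoa5, neighbours on chromosome 9, are both tied to triglyceride transport. Apoa4 (ENSMUSG00000032080) encodes a lipid-binding protein that the intestine makes in large amounts and that mouse liver also makes. It had 53.8 and 69.0 RPKM in the ZT0 libraries, 45.1 and 75.6 RPKM in the ZT2 pair and 32.4 and 16.1 RPKM in the ZT12 pair. The ZT12 libraries were the lowest, and they differed from each other 2.01-fold, on 503 and 236 reads. The mean was 24.3 ± 11.5 RPKM at ZT12 and 61.4 ± 10.7 RPKM at ZT0 (SD, n = 2 each), a ratio of 0.395.

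For Apoa4 the log2 change at ZT12 was -1.37 ± 0.37 (SE, limma adjusted p = 0.161) against ZT0, and -1.31 ± 0.37 (SE, limma adjusted p = 0.127) against ZT2. Among all tested genes, 1.36% had a lower log2 change against ZT0. Against ZT0 the change was -0.89 without ZT12 replicate 2 and -1.85 without ZT12 replicate 1. Against ZT2 it was -0.83 without ZT12 replicate 2. With voom the adjusted p was 0.034 against ZT0 and 0.035 against ZT2. Over all settings it ran from 0.034 to 0.765 against ZT0.

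Apoa5 (ENSMUSG00000032079), a liver protein that promotes the clearance of triglyceride by lipoprotein lipase, was the only member whose lowest mean was at ZT0. It had 798.3 and 743.5 RPKM in the ZT0 libraries, 1093 and 878.1 RPKM in the ZT2 pair and 834.1 and 1079 RPKM in the ZT12 pair. Both ZT0 libraries were lower than the other 4, and the ZT2 and ZT12 libraries overlapped. The mean was 956.8 ± 173.5 RPKM at ZT12 and 770.9 ± 38.7 RPKM at ZT0 (SD, n = 2 each). On the log2 scale the difference was 0.30 ± 0.19 (SE, limma adjusted p = 0.532). It was 0.11 without ZT12 replicate 2 and 0.49 without ZT12 replicate 1. Apoa1 and Apoa5 lie at opposite ends of the chromosome 9 cluster, with Apoc3 and Apoa4 between them. As a ratio of RPKM within a library, Apoa1 over Apoa5 was 13.2 and 17.5 in the ZT0 libraries. This ratio was 7.99 and 13.1 in the ZT2 pair and 10.0 and 5.96 in the ZT12 pair.

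Apob (ENSMUSG00000020609) encodes the large scaffold of very-low-density lipoproteins, which stays with its particle from assembly to uptake. It had 288.8 and 268.6 RPKM in the ZT0 libraries, 210.8 and 299.4 RPKM in the ZT2 pair and 212.7 and 274.0 RPKM in the ZT12 pair. The lowest and the highest library were both at ZT2, and all 3 time points overlapped. The log2 change was -0.21 ± 0.22 (SE, limma adjusted p = 0.728) for ZT12 against ZT0, with a 95% interval of -0.72 to 0.31. It was -0.023 without ZT12 replicate 1 and -0.39 without ZT12 replicate 2, and scaling to equal summed RPKM gave -0.13 and quantile normalization -0.10. These values rest on 17585 to 45728 reads per library.

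The small exchangeable proteins move between lipoproteins and temper their clearance. Apoc3 (ENSMUSG00000032081), an inhibitor of lipoprotein lipase, had 6864 and 7709 RPKM in the ZT0 libraries, 9601 and 5478 RPKM in the ZT2 pair and 5277 and 3299 RPKM in the ZT12 pair. Both ZT12 libraries were lower than the other 4, although ZT12 replicate 1 lay close to ZT2 replicate 2. The mean was 4288 ± 1399 RPKM at ZT12 and 7287 ± 597 RPKM at ZT0 (SD, n = 2 each). On the log2 scale the difference was -0.80 ± 0.32 (SE, limma adjusted p = 0.317). It was -0.46 without ZT12 replicate 2 and -1.14 without ZT12 replicate 1. At ZT2 against ZT0 the log2 change was -0.0045 with a 95% interval of -0.76 to 0.75.

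Apoc1 (ENSMUSG00000040564), which in human plasma inhibits the cholesteryl ester transfer protein, had 3399 and 3221 RPKM in the ZT0 libraries, 4256 and 3408 RPKM in the ZT2 pair and 2863 and 2210 RPKM in the ZT12 pair. The groups did not overlap in any pair of time points, with ZT2 highest and ZT12 lowest, although 3408 RPKM at ZT2 lay barely above 3399 RPKM at ZT0. The log2 change was -0.60 ± 0.20 (SE, limma adjusted p = 0.178) for ZT12 against ZT2, and 0.20 ± 0.20 (SE, limma adjusted p = 0.680) for ZT2 against ZT0. The second value was 0.043 without ZT2 replicate 1, 0.36 without ZT2 replicate 2 and 0.12 with equal summed RPKM.

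Apoe (ENSMUSG00000002985), the ligand through which remnant particles bind receptors of the LDL receptor family, had 15312 and 14451 RPKM in the ZT0 libraries, 13981 and 10935 RPKM in the ZT2 pair and 10182 and 7986 RPKM in the ZT12 pair. The 3 time points did not overlap, with ZT0 highest and ZT12 lowest. The margins were narrow, with 14451 RPKM at ZT0 next to 13981 RPKM at ZT2, and 10935 RPKM at ZT2 next to 10182 RPKM at ZT12. The mean was 9084 ± 1552 RPKM at ZT12 and 14882 ± 609 RPKM at ZT0 (SD, n = 2 each), a ratio of 0.610. The log2 change was -0.72 ± 0.21 (SE, limma adjusted p = 0.194), and with voom it was -0.72 with an adjusted p of 0.046. Leaving out ZT12 replicate 2 gave -0.55, leaving out ZT12 replicate 1 gave -0.90 and quantile normalization gave -0.50. Over all settings the adjusted p ran from 0.046 to 0.775.

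Apoe and its neighbour Apoc1 held a nearly fixed ratio within each time point. The RPKM of Apoe was 4.50 and 4.49 times that of Apoc1 in the ZT0 libraries, 3.29 and 3.21 times in the ZT2 pair and 3.56 and 3.61 times in the ZT12 pair. The gap between replicates was at most 0.0765, and the means of the time points, 4.50, 3.25 and 3.59, lay farther apart than that. This ratio was singled out after its values were seen, and it was not tested. With 2 libraries a group, an exact permutation test of a pair of time points could not go below 0.333 (two-sided).

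**Figure D4:**
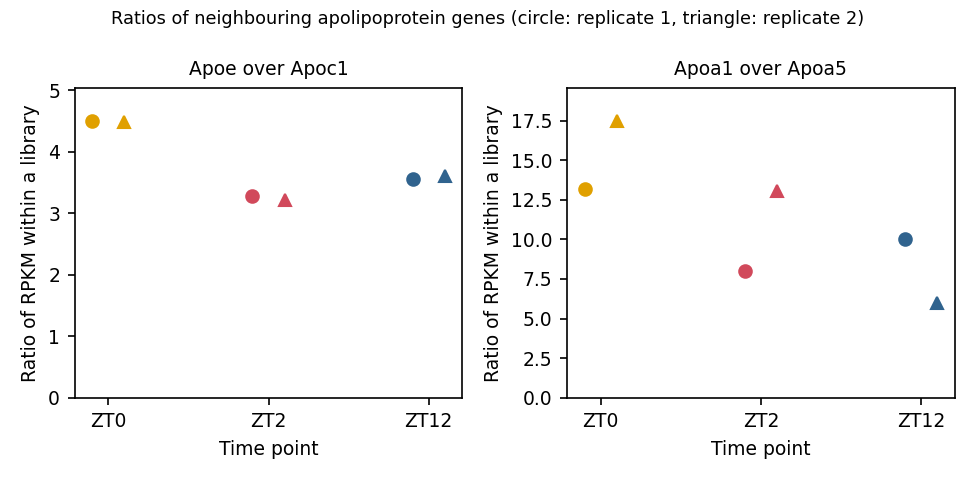
Ratio of RPKM within each library for Apoe over Apoc1 on chromosome 7 (left) and Apoa1 over Apoa5 on chromosome 9 (right) at ZT0, ZT2 and ZT12, with a circle for replicate 1 and a triangle for replicate 2. The replicates of the Apoe to Apoc1 ratio nearly coincide at each time point, while those of the Apoa1 to Apoa5 ratio lie far apart.

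Apoh (ENSMUSG00000000049) encodes beta-2-glycoprotein I, a plasma protein that binds phospholipids and is the main target of antiphospholipid antibodies. It had 3335 and 3744 RPKM in the ZT0 libraries, 3408 and 2828 RPKM in the ZT2 pair and 2582 and 2814 RPKM in the ZT12 pair. Both ZT12 libraries were lower than the other 4, by little in the case of ZT2 replicate 2. Its coefficient of variation over the 6 libraries, 14.3%, was the smallest of the 9, and its log2 change was -0.39 ± 0.18 (SE, limma adjusted p = 0.367) for ZT12 against ZT0.

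**Figure D5:**
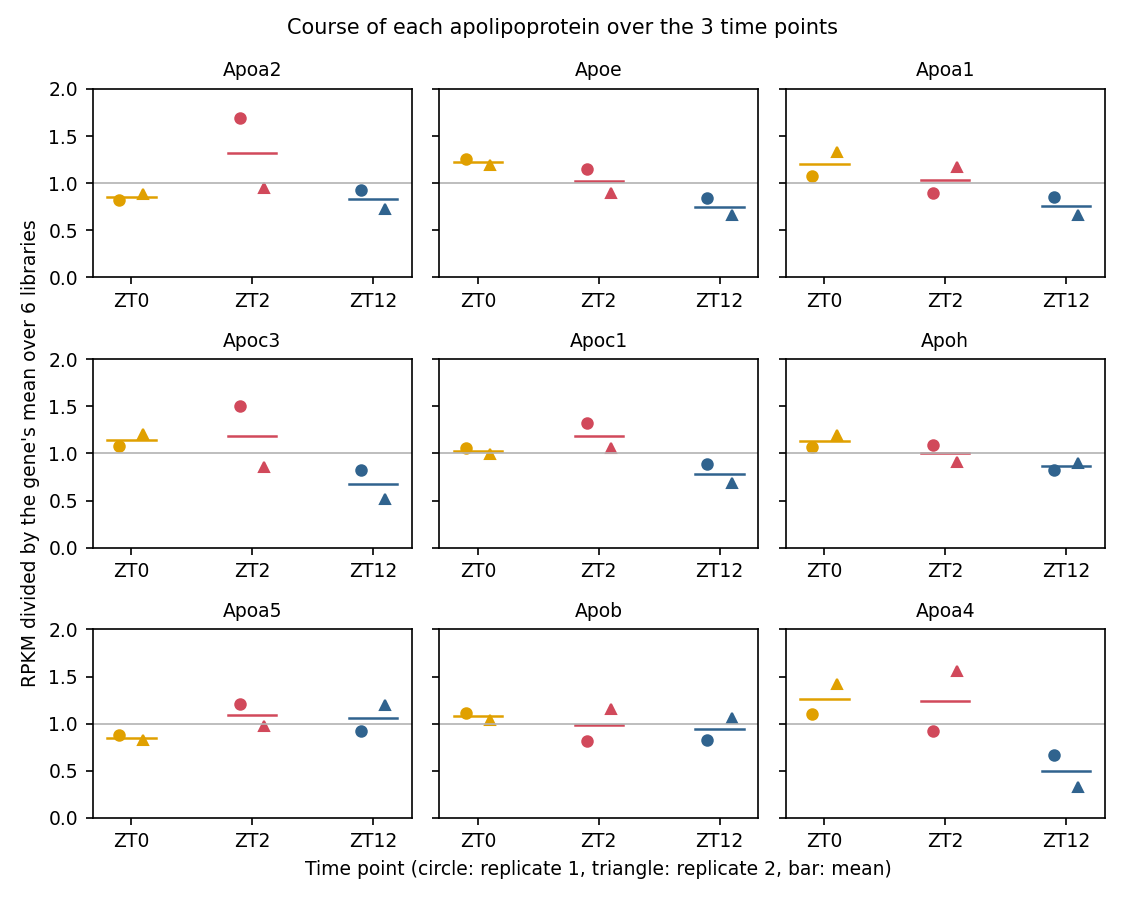
RPKM of each apolipoprotein in each library divided by the mean of that gene over the 6 libraries, at ZT0, ZT2 and ZT12, with a circle for replicate 1, a triangle for replicate 2 and a bar at the mean. The ZT12 points of Apoe, Apoa1, Apoc3, Apoc1, Apoh and Apoa4 lie below their ZT0 points, those of Apoa5 lie above them, and ZT2 replicate 1 of Apoa2 stands apart.

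At ZT0, 4 of the 9 were higher in replicate 1 and 5 in replicate 2 (51.3% of all tested genes were higher in replicate 1). At ZT12, 6 of the 9 were higher in replicate 1 (49.99% of all tested genes), by 1.27-fold for Apoe to 2.01-fold for Apoa4, and the other 3, Apoa5, Apob and Apoh, were higher in replicate 2. At ZT2, 6 of 9 were higher in replicate 1 (52.2% of all tested genes), most of all Apoa2 with 1.78-fold and Apoc3 with 1.75-fold, and Apoa1, Apoa4 and Apob were lower in it. The median absolute gap between replicates was 0.39 at ZT2, 0.37 at ZT12 and 0.11 at ZT0 for the 9 on the log2(RPKM + 1) scale, and 0.28 at ZT2, 0.20 at ZT12 and 0.14 at ZT0 for the 1007 genes averaging 100 RPKM or more.

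Across the 6 libraries, Apoa1 and Apoa4 had the most similar course of any pair of members, with a Pearson r of 0.96 of log2(RPKM + 1). Apoc1 and Apoc3 followed with 0.93, and Apoe was most like Apoc3 with 0.91. Apoa5 had no close partner, with a highest r of 0.41 to Apoa2 and -0.76 to Apoa1, and Apob had at most 0.36. These values describe 6 libraries that share their scaling and replicate differences. The median course of the 9 was most like that of ENSMUSG00000020180 (r = 0.98) and ENSMUSG00000029810 (r = 0.97) among 999 other genes averaging 100 RPKM or more, of which 4.40% had an r above 0.9. No symbols for these 2 identifiers were used here.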

How the data were processed

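Disome footprints of 6 liver libraries were analysed. The authors deposited 1 table of RPKM values per library, without header or symbols. The tools were edgeR, StringTie, STAR, Bowtie2 2.3.0, CASAVA 1.82 and cutadapt and the builds mm10 and GRCm38.p2, per the submitters' processing notes, which give no roles. How genes were filtered and multiply mapped reads treated is not stated there. Per the labels' protocols, lysates of 2 mice were pooled and digested with 650 U RNase I for 45 min. Separate pools are assumed to be separate replicates; otherwise p-values measure technical spread.

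Whole reads and gene lengths were recovered from ratios of the deposited RPKM (relative tolerance 5e-13) for 8939 genes directly and for 2 through their length; 95.2% of lengths were multiples of 3. The reads gave depth, shares and the voom alternative, and are too low for any gene whose 6 counts have a common divisor that went unnoticed.

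The test was limma 3.58.1 (R 4.3.3) on log2(RPKM + 1) for genes averaging 1 RPKM or more, with 1 mean per time point over 6 libraries (3 residual degrees of freedom), a variance trend and Benjamini-Hochberg adjustment over all 8355 genes. The scale understates changes of low genes. The scripts were tested on simulated data. All 9 members are named with their values; the other genes given were chosen by likeness over the 6 libraries or by a rank next to Apoa2. Shares and intervals used scipy 1.17.1. Libraries with the same replicate number did not deviate together (r = -0.076, -0.019 and 0.018), and the numbers were not taken as pairs.

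The members, lists and tests were chosen with earlier results of these data known. The names come with the choice of the 9 identifiers. The reference table carries no Ensembl identifiers (0 of 49997 genes), so planned lists of lipoprotein partners and cell type markers could not be matched and were not tested. Motifs and the ratios within libraries were chosen after the values were seen.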

Additional observations from a re-analysis of the deposited data

How the results depend on the processing

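None of the 9 apolipoproteins was called by limma in any of the 3 comparisons or in the F test with a pseudocount of 0.1 or 5, without the filter, with either other scaling, without the variance trend, with the replicate block, at an adjusted p of 0.1, or without any one library (0 to 0 of 9). A fit on the 4 libraries compared, which gives no F test over 3 time points, called 0 of 9 in each comparison. Voom on the recovered reads called 2 of 9 for ZT12 against ZT0, 1 for ZT12 against ZT2 and 1 in the F test, where it called 283, 361 and 357 of the 8355 genes (3.39%, 4.32% and 4.27%); the cause was not tested. Of 405 values of log2 change under alternatives, 387 kept their sign and side of the threshold, 1 was 0 within 1e-09 (Apoa2, ZT12 against ZT0, with quantile normalization), 3 became called, all with voom, and 14 changed sign, none of them a called value. Scaling to the same summed RPKM gave 0.023 for Apoa2 (ZT12 against ZT0), and 0.12 for Apoa5 and 0.11 for Apob (ZT12 against ZT2); with it the all-gene median log2 change was -0.11 (ZT2 over ZT0), 0.06 (ZT12 over ZT0) and 0.17 (ZT12 over ZT2). Voom gave 0.00045 for Apoc3 (ZT2 against ZT0). Leaving out 1 library gave, for ZT2 against ZT0, -0.42 to 0.31 for Apoa4, -0.40 to 0.10 for Apob and -0.41 to 0.40 for Apoc3; for ZT12 against ZT0, -0.23 to 0.12 for Apoa2; and for ZT12 against ZT2, -0.23 to 0.14 for Apoa5 and -0.31 to 0.20 for Apob. The spread of a group left with 1 library was taken from the other groups. The replicate block left 0 of 9 called and changed no call. Under an unadjusted p of 0.05 the F test then counted 4 in place of 2 members (17.4% in place of 18.6% of all tested genes). Scaling to the same summed RPKM gave 1 in place of 3 such members for ZT12 against ZT2 (20.3% in place of 19.2% of all tested genes). The share of the 9 was 4.77% of reads in place of 8.41% of summed RPKM, which weights short genes more, and 7.78% to 8.81% of summed RPKM without 1 library. Over all genes, limma's counts of 2, 79, 172 and 105 (the F test last) ran from 0 to 256, 3 to 300, 5 to 609 and 5 to 630 over these alternatives, were 8, 179, 423 and 305 at an adjusted p of 0.1, and 2, 51, 113 and 76 with the replicate block. Apoa4 rests on 236 to 691 reads per library and each other member on at least 6210.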
